A study of Mus musculus with 4 samples.

Results

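The genes described here drive chromosome segregation and cell division. A list of 48 mitosis and spindle genes (mitotic kinases and cyclins, checkpoint proteins, kinesins, centromere and kinetochore proteins, condensin subunits and cytokinesis factors) was matched to probe sets that the annotation assigns to that gene alone. Such a probe set was found for 47 of the 48, out of 19937 genes named in this way on the array, and Ccnb1 had none listed. The genes were listed by function, with earlier results of these data known, and the rule that matched them used gene names alone. The study asked how NKX2-3, a homeobox transcription factor, acts on B lymphocytes. The 4 arrays analysed here hold total RNA of pro-B cells, sorted as B220+cKit+ cells from bone marrow of wild-type mice on the C57BL/6 background, and were labelled as replicates 1 to 4 of a single group. No treatment, age or sex was given, no transgenic sample was analysed here, and no comparison between conditions could be made.

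Pro-B cells are B-lineage progenitors that divide under interleukin-7 before and between the rearrangements of their immunoglobulin genes. A dividing cell accumulates cyclins A and B through G2, activates Cdk1, condenses its chromosomes, attaches them to the spindle through kinetochores, and holds anaphase back by a checkpoint until every chromosome is attached. Most transcripts of this programme rise together in G2 and M phase and fall when cells enter quiescence, so that their level in bulk RNA depends on how many of the cells are dividing. In bulk RNA, fewer cells of a type and less RNA per cell cannot be told apart.

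Much of the timing of this programme is attributed to short promoter elements. The cell cycle homology region, read here as TTTGAA (on the other strand TTCAAA) or as TTCGAA, which reads the same on both strands, is bound by the MuvB complex through Lin54, and the CCAAT box (on the other strand ATTGG) by NF-Y. RefSeq promoter windows of assembly GRCm38.p6, which run from 250 bases before to 50 bases after an annotated start, were found for 41 of the 48 listed genes (46 windows). Aurkb, Ccna2, Cdc25c, Kif20a, Smc4, Spc24 and Tpx2 had none in the table. The first element stood in 34 of these 46 windows (73.9%), against 19.2% of all 32851 windows. CCAAT stood in 35 (76.1%), against 37.4% of all windows, and both stood in 29 (63%), against 7.52%. The windows below were chosen to show the entry kinases and cyclins Cdk1, Ccnb2, Plk1 and Aurka, the checkpoint kinase Bub1, the spindle motor Kif11, and the genes whose values varied most over the arrays, Ndc80 and Cenph. They are printed 5′ to 3′ on the strand of the gene, with matches to either element in capitals.
Cdk1, chr10:69352863-69353162, minus strand: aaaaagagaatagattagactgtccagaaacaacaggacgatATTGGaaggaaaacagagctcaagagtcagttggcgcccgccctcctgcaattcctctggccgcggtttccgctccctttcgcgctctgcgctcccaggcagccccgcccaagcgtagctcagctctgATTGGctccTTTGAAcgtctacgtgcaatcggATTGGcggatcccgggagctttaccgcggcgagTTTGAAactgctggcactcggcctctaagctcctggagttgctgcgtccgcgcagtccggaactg
Ccnb2, chr9:70421505-70421804, minus strand: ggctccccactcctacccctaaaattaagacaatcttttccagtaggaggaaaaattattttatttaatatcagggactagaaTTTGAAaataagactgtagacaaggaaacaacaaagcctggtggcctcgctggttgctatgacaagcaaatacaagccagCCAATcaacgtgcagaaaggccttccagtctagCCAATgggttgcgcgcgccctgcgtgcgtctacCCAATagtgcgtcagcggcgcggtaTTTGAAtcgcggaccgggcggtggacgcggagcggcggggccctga
Plk1, chr7:122159185-122159484, plus strand: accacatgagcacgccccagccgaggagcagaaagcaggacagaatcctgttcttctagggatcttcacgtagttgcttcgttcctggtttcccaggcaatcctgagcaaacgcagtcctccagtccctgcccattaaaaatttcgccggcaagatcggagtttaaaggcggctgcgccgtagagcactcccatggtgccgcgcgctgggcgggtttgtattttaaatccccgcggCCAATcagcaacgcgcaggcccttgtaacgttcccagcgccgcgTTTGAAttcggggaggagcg
Aurka, chr2:172370521-172370820, minus strand: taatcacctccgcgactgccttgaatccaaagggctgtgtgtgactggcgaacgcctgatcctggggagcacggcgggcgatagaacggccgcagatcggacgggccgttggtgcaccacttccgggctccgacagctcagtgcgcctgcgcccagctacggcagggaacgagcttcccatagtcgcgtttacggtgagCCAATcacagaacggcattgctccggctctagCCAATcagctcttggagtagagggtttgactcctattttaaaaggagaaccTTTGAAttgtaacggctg
Bub1, chr2:127831810-127832109, minus strand: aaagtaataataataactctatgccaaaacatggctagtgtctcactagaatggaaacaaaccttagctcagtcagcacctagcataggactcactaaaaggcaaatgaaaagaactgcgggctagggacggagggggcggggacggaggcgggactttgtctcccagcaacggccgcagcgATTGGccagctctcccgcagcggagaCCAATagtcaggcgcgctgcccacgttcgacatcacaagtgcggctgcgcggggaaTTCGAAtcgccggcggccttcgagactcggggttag
Kif11, chr19:37376132-37376431, plus strand: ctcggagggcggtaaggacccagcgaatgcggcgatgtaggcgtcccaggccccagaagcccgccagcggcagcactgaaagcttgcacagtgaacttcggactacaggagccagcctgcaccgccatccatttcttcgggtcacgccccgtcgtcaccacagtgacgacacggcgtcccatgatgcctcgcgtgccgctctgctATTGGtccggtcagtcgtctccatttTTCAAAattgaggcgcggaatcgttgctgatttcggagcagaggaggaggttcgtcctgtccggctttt
Ndc80, chr17:71526808-71527107, minus strand: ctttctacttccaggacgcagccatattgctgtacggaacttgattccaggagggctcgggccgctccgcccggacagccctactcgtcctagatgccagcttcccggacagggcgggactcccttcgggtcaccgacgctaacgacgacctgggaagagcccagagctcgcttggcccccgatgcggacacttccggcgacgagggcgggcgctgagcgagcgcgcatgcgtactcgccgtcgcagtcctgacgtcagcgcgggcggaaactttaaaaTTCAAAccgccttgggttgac
Cenph, chr13:100775850-100776149, minus strand: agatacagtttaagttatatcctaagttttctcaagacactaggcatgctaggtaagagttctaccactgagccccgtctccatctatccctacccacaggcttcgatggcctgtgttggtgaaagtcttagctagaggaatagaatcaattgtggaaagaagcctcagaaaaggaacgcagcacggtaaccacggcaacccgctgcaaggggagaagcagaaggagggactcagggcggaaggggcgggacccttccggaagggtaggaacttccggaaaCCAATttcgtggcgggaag
The first element lay close to the start in the first 7 of these windows. Counted from the annotated start to its first base, the nearest match began at -15 in Cdk1, 4 in Ccnb2, 30 in Plk1 and 32 in Aurka. It began at 14 in Bub1, -19 in Kif11 and 29 in Ndc80. Another match lay further upstream in Cdk1, at -71, and in Ccnb2, at -167. The Cenph window held 0 matches to the first element and 1 CCAAT match. In Ccnb2 the 3 CCAAT matches followed each other at 33 and 33 bases, while the adjacent pairs nearest to the start lay 32 bases apart in Cdk1 and in Aurka. Such a pair, in the same orientation and 31 to 33 bases apart, occurred in 6 of the 46 windows (13%) and in 0.794% of all windows. Within the last 100 bases of the window the first element occurred in 30 of 46 windows (65.2%), against 5.31% of all windows. These last 2 readings were chosen after the matches were seen. Among 79 windows of other mitotic genes the element occurred in 35 (44.3%), and in 26 (32.9%) within the last 100 bases, while CCAAT occurred in 47 (59.5%) and both in 26 (32.9%). Among 47 windows of DNA replication genes the element occurred in 7 (14.9%), and in 2 (4.26%) within the last 100 bases, while CCAAT occurred in 26 (55.3%) and both in 5 (10.6%). A match is a description of letters and was not tested as a binding site.

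**Figure D1:**
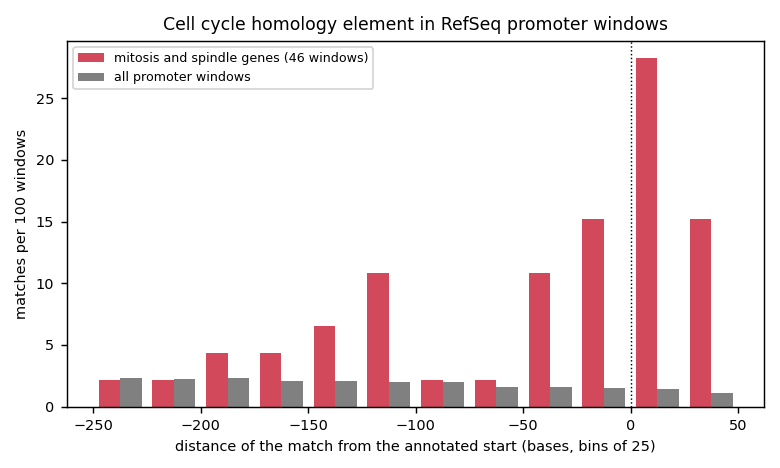
Matches to the cell cycle homology element per 100 promoter windows (vertical axis) by distance of the match from the annotated start in bins of 25 bases (horizontal axis), for the mitosis and spindle genes (red) and all windows (grey). The red bars peak at 28.3 per 100 windows in the first 25 bases after the start, where all windows hold 1.44.

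Every one of the 47 genes was measured well above background. Genes of taste receptors and of the olfactory and vomeronasal receptors (1246 probe sets) were assumed to be silent in lymphocytes, and their 95th percentile on an array served as its background line, which lay at 6.53 to 6.62 on the log2 intensity scale. All 47 passed it on all 4 arrays, against 63.5% of the 21640 single-symbol probe sets and 3.61% of the silent ones. The smallest distance from the line on any array was 1.70, that of Cdc25c on its lowest array. The count of 47 was the same with each of the other lines tried, among them the array median and the 99th percentile of the silent genes. Top2a had a second probe set of its own, with a mean of 6.09 ± 0.14 (SD, n = 4) and above the line on 0 arrays, so Top2a is given below by the brighter one.

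Their values differed little between the arrays. The SD of a gene's log2 values had a median of 0.081, against 0.115 for all 13744 single-symbol probe sets above background and 0.106 for the 6679 of these with a mean of at least 9. Of the 47 genes, 38 had an SD below the median of all. The same number, 38 of 47, spanned less than 0.25 from the lowest to the highest array (1.19-fold), against 48.3% of all probe sets above background and 53.9% of those with a mean of at least 9, a limit chosen after the values were seen. By Dixon's ratio, 1 array stood apart from 3 close ones for 3 of the 47 genes, Bub1b, Mki67 and Anln, against 5.36% of all probe sets above background. For 2 of them the low array was replicate 2, as for 0.502% of all, and for 1 it was replicate 3, as for 0.451%. Between pairs of arrays the median absolute difference was 0.072 to 0.112 for these genes and 0.103 to 0.149 for all probe sets. The precision of each SD is limited by the number of arrays, and the labels do not name the animals behind each replicate.

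**Figure D2:**
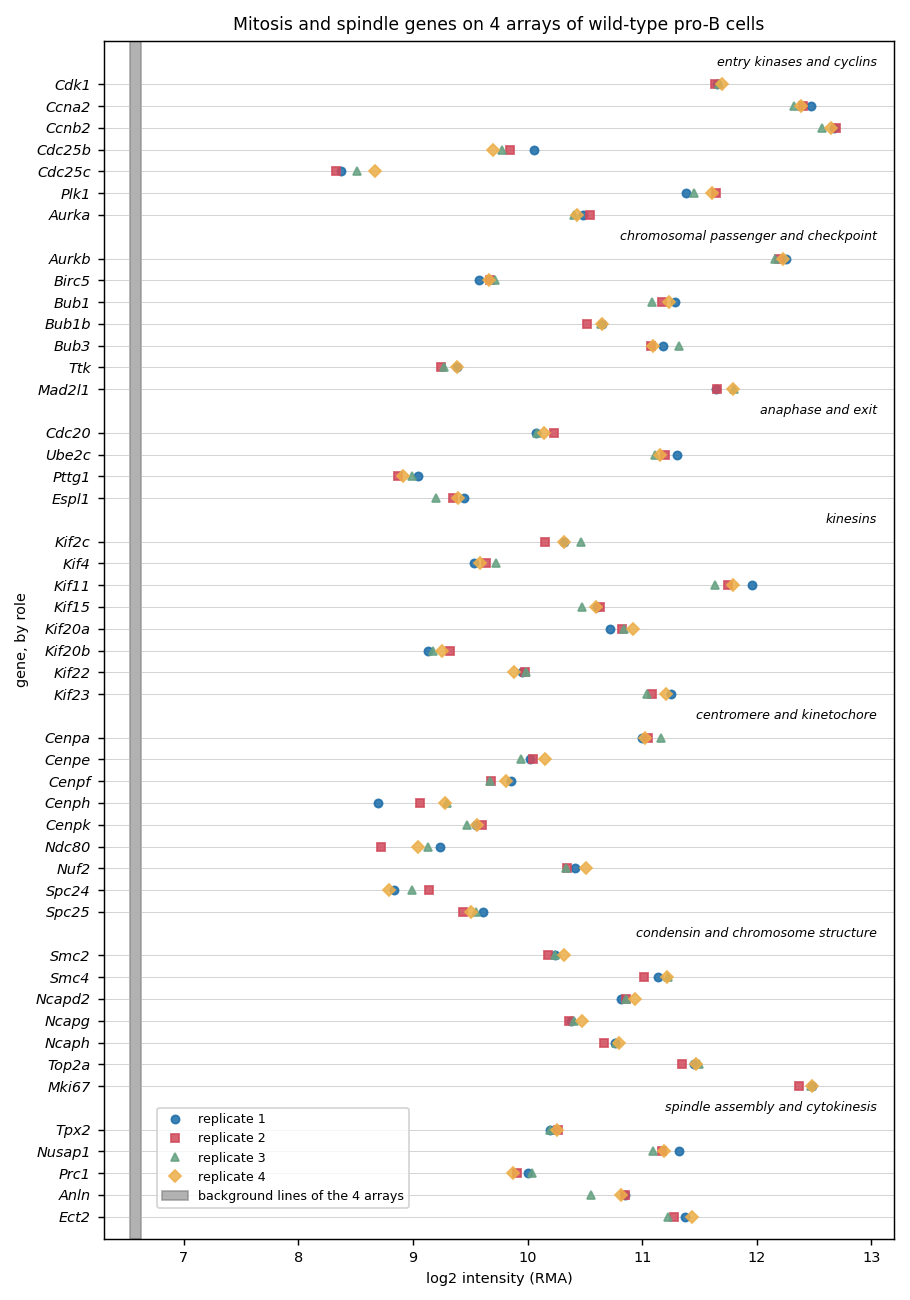
Log2 intensity (horizontal axis) of the 47 mitosis and spindle genes (vertical axis, grouped by role) on the arrays of replicates 1 to 4 of wild-type pro-B cells, with the background lines of the arrays as a grey band. The 4 symbols lie within 0.25 for 38 of the 47 genes, while Cenph, at 8.69 to 9.30, and Ndc80, at 8.72 to 9.23, are spread widest.

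**Figure D3:**
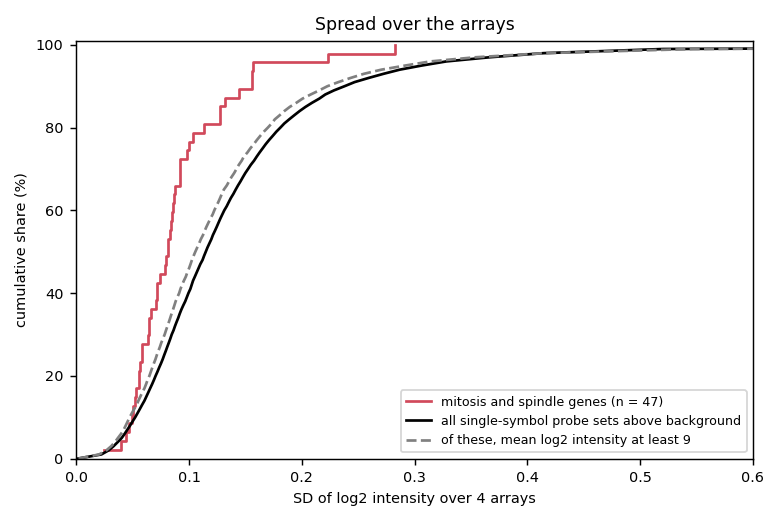
Cumulative share of genes (vertical axis, percent) by SD of log2 intensity over the 4 arrays (horizontal axis). The curve of the mitosis and spindle genes (red, median 0.081) reaches its middle at a smaller SD than those of all probe sets above background (black, median 0.115) and of those with a mean of at least 9 (dashed, median 0.106).

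Depth of the whole series is an intensity, not a count, and the array medians lay between 7.31 and 7.35. The sorted population held early B-cell transcripts, with 17 of 18 markers above background on all arrays and Rag2 on 3 of 4. It also held later B-cell transcripts, with 9 of 9 markers above background on all arrays, against 63.5% of all probe sets. Of the markers of other marrow cells, 9 of 9 erythroid, 13 of 13 granulocyte and monocyte, 5 of 5 megakaryocyte and 7 of 8 T and NK cell markers passed on all arrays, against 63.5% of all probe sets. Cd3d was above the line on 0 arrays, and Cd3g, Cd4 and Cd8a, named after their values were seen, lay at 6.79 to 7.19, on each array under the 99th percentile of silent genes. The others of that list went the other way. Cd3e, at 7.27 to 7.74, Thy1, at 7.45 to 7.92, and Ncr1, at 8.43 to 9.37, lay over that percentile on each array. Klrb1c, at 7.05 to 8.31, lay over it on replicates 1 and 3. Mean log2 levels of these lists ranged over the arrays from 10.13 to 10.84 for early and 9.46 to 10.20 for later B-cell markers. They ranged from 8.54 to 10.12 for erythroid and 11.25 to 11.78 for granulocyte and monocyte markers. For megakaryocyte markers they were 8.05 to 8.91, and for T and NK cell markers 7.36 to 7.62. The part of each cell type in the mitotic signal was not tested. Xist, the RNA of the inactive X chromosome, was at 5.48 on replicate 3 and at 13.04 to 13.17 on the others, and the Y-linked Eif2s3y was at 10.05 on replicate 3 and at 4.62 to 5.17 on the others, so that replicate 3 did not share its animals with them. Kif4, the chromokinesin and 1 X-linked gene among the 47, was at 9.73 there and at 9.54 to 9.63 on the other arrays. Without replicate 3 the median SD of the 47 genes was 0.070, and without replicates 1, 2 and 4 it was 0.075, 0.086 and 0.081.

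The kinases, cyclins and phosphatases of mitotic entry held both the steadiest gene and some of the most variable. Of these 7 genes, 4 stayed within 0.25, near the share of all probe sets (48.3%, or 53.9% with a mean of at least 9). Cdk1, the kinase that starts mitosis, had log2 intensities of 11.65, 11.64, 11.67 and 11.69 on the arrays of replicates 1 to 4, the smallest spread of all 47 genes (11.66 ± 0.025, SD, n = 4). Its cyclin partners Ccna2 and Ccnb2 ranged from 12.32 to 12.48 and from 12.57 to 12.69. Aurka, the centrosomal Aurora kinase, was at 10.49, 10.54, 10.41 and 10.43. The Polo-like kinase Plk1, which acts at centrosomes, kinetochores and the midzone, was at 11.38, 11.65, 11.46 and 11.61, lowest on replicate 1. The phosphatases that activate Cdk1 varied more, and in different ways. Cdc25b was at 10.06, 9.84, 9.78 and 9.69 (9.84 ± 0.16, SD, n = 4), highest on replicate 1. Cdc25c was at 8.37, 8.33, 8.51 and 8.67 (8.47 ± 0.16, SD, n = 4), highest on replicate 4.

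Genes of the chromosomal passenger complex and the spindle checkpoint stayed within 0.25 in 7 of 7 cases, against 48.3% of all probe sets. Aurkb, the kinase of the passenger complex, was at 12.26, 12.19, 12.16 and 12.23 (12.21 ± 0.044, SD, n = 4). Birc5, which encodes its subunit survivin, ranged from 9.58 to 9.71. Bub1b encodes the checkpoint protein BubR1, and was at 10.64, 10.52, 10.64 and 10.65, so that replicate 2 lay below 3 nearly equal arrays. Mad2l1, whose product inhibits Cdc20 at unattached kinetochores, was at 11.65, 11.66, 11.80 and 11.79. Replicates 3 and 4 held the higher values for that gene, within a whole range of 0.16. This order was read from these values and is not a group of the study. The checkpoint kinases Bub1 and Ttk ranged from 11.08 to 11.29 and from 9.25 to 9.38, and Bub3 from 11.08 to 11.32.

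The genes of anaphase onset and mitotic exit showed the same narrow range in 4 of 4 cases, against 48.3% of all probe sets. Cdc20, an activator of the anaphase-promoting complex, was at 10.07, 10.23, 10.08 and 10.15. Ube2c, the ubiquitin-conjugating enzyme of that complex, was at 11.31, 11.20, 11.11 and 11.15. Espl1, which encodes separase, the protease that cuts cohesin, was at 9.44, 9.35, 9.20 and 9.39. Replicate 1 was the highest for Ube2c and Espl1, as it was for Pttg1, which encodes the separase inhibitor securin and ranged from 8.87 to 9.05.

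Among the kinesins, the motors that build the spindle and move chromosomes, 6 of 8 stayed within 0.25, against 48.3% of all probe sets. Kif11, the motor that pushes the spindle poles apart, was at 11.96, 11.75, 11.64 and 11.79 (11.78 ± 0.13, SD, n = 4). Kif22, a chromokinesin, was at 9.95, 9.98, 9.99 and 9.88 (9.95 ± 0.049, SD, n = 4). Kif2c, a microtubule depolymerase, had the other wide range, from 10.15 on replicate 2 to 10.47 on replicate 3. Kif15, Kif20a, Kif20b and Kif23 ranged from 10.48 to 10.63, 10.71 to 10.92, 9.13 to 9.32 and 11.04 to 11.25.

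The centromere and kinetochore group held the 3 genes with the largest SD, although Cdc25b and Cdc25c had wider ranges than the third, Spc24. Cenph, a subunit of the inner kinetochore network, was at 8.69, 9.06, 9.30 and 9.28 (9.08 ± 0.28, SD, n = 4), a span of 1.52-fold with replicate 1 lowest. Ndc80, of the outer kinetochore complex that grips microtubules, was at 9.23, 8.72, 9.13 and 9.05 (9.03 ± 0.22, SD, n = 4), a span of 1.43-fold with replicate 2 lowest. Spc24, of the same complex, was at 8.83, 9.14, 8.99 and 8.79 (8.94 ± 0.16, SD, n = 4), so that the array lowest for Ndc80 was the highest for Spc24. The partners Nuf2 and Spc25 ranged from 10.34 to 10.51 and from 9.44 to 9.61. Cenpa, the centromeric histone H3 variant, was at 11.05, 11.16 and 11.02 on replicates 2 to 4 and lowest, at 11.0015, on replicate 1. Cenpe, a kinetochore motor, was at 10.02, 10.05, 9.95 and 10.15. Cenpf and Cenpk ranged from 9.67 to 9.85 and from 9.47 to 9.60.

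The condensin and chromosome structure genes shared a direction on replicates 2 and 4, by small amounts. The shift of a gene on an array is its value there less the average over the other 3. On replicate 4, 7 of 7 had a positive shift, where 45.9% of all probe sets above background did, with a median of 0.088. On replicate 2, 0 of 7 had a positive shift, where 49.3% of all did, with a median of -0.106. The count on replicate 4 was 7 under every scaling tried, and that on replicate 2 was 0 or 1. On replicate 3 the count was 4, but 7 with median centring, and on replicate 1 it was 3, but 1 with median centring. The 3 condensin II genes, kept in a separate list, did not share the direction on replicate 2. There 2 of 3 had a positive shift, with a median of 0.009. On replicate 4 it was also 2 of 3, with a median of 0.104. Smc2, a core ATPase of condensin, was at 10.24, 10.18, 10.24 and 10.32. Its condensin I partners Ncapg, at 10.38, 10.36, 10.40 and 10.47, and Ncapd2, at 10.81, 10.86, 10.86 and 10.93, were also highest on replicate 4. Ncaph and Smc4 ranged from 10.66 to 10.79 and from 11.01 to 11.22. Top2a, the topoisomerase that untangles sister chromatids, was at 11.45, 11.35, 11.49 and 11.47. Mki67 encodes the proliferation marker Ki-67, which coats mitotic chromosomes, and was at 12.48, 12.37, 12.47 and 12.48. The largest of these differences was 0.21, in Smc4, and a difference between single arrays of a group has no replicate, so none was tested.

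Of the spindle assembly and cytokinesis genes, 1 of 5 had a positive shift on replicate 3, under every scaling, and the median was -0.134. Of all probe sets above background, 52.2% had one there. Anaphase and exit genes were also low there, with 1 of 4 positive and a median of -0.089. So were the entry kinases and cyclins, with 2 of 7 and -0.088. The count was 4 of 7 for the chromosomal passenger and checkpoint genes, 4 of 8 for kinesins and 5 of 9 for centromere and kinetochore genes. Replicate 3 is also the array that differed in Xist and Eif2s3y, and a difference of a single array was not tested. Anln, which encodes the contractile ring scaffold anillin, was at 10.85, 10.85, 10.55 and 10.82 (10.77 ± 0.14, SD, n = 4), with replicate 3 below 3 nearly equal arrays. Ect2, the exchange factor that activates RhoA at the cleavage site, and Nusap1, a spindle microtubule protein, were lowest on the same array, at 11.23 and 11.09. Prc1, which bundles the microtubules of the midzone, was the exception, at 10.0004, 9.91, 10.04 and 9.87. Tpx2, the activator of Aurora A on spindle microtubules, was at 10.19, 10.26, 10.19 and 10.26 (10.23 ± 0.039, SD, n = 4).

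**Figure D4:**
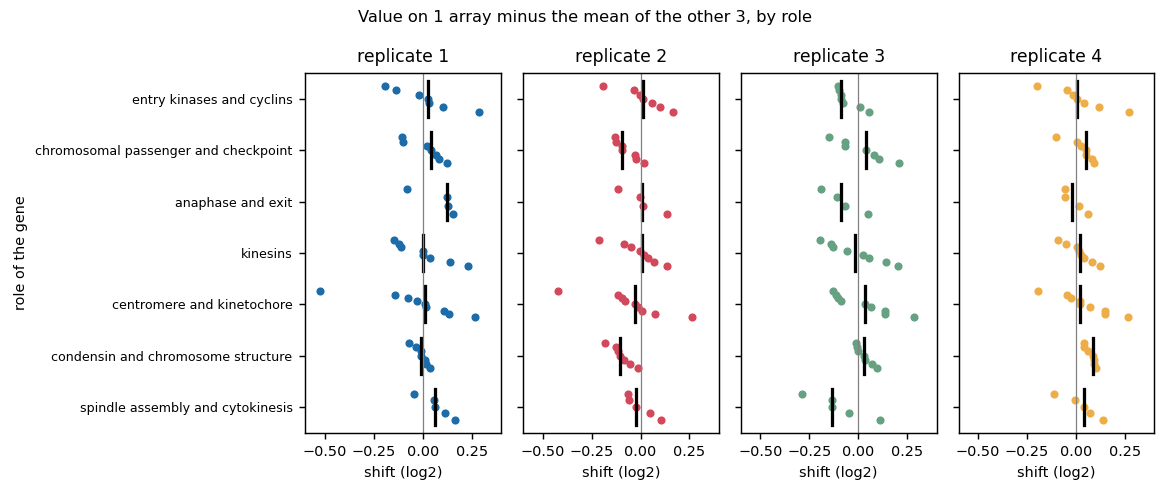
Shift of each gene on the log2 scale (horizontal axes, value on 1 array minus the mean of the other 3) by role (vertical axis) on each of the 4 arrays. Points are genes and black bars are medians; the 7 condensin and chromosome structure genes all lie below 0 on replicate 2 and above 0 on replicate 4.

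Across all 47 genes the arrays shared no wide displacement. The median shifts on replicates 1 to 4 were 0.015, -0.026, -0.013 and 0.040. Positive shifts were counted in 29, 16, 21 and 34 genes, where 52.1%, 49.3%, 52.2% and 45.9% of all probe sets had one, and 50.9%, 46%, 54.6% and 48.4% of those with a mean of at least 9. Replicates 1 to 4 were the lowest array for 10, 15, 18 and 4 of the 47 genes, and for 28.9%, 23.4%, 20.2% and 27.6% of all probe sets. Median centring of the arrays changed the counts of replicate 1 to 20 genes and of replicate 2 to 18, and cyclic loess gave 27 and 22. For replicate 4 the count was 31 to 36 over the scalings.

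Other genes of the same machinery gave a similar picture. Of 85 further mitotic genes, 83 had a probe set of their own and 82 were above background, with a median SD of 0.090. The exception was Spdl1, whose product recruits dynein to kinetochores, which passed the line on 2 of 4 arrays. The range was under 0.25 in 58 of the 82, against 48.3% of all probe sets above background. Their median shifts on replicates 1 to 4 were -0.003, -0.002, 0.003 and 0.033. Some lists within them were less even. On replicate 1, where 52.1% of all probe sets had a positive shift, 20 of 23 other spindle and cytokinesis genes had one (16 with median centring), led by Cep55, a protein of the final abscission, at 9.30 against 8.91 to 9.14. Of 24 other kinetochore and checkpoint genes 8 had one there (4 with median centring), with Cenpp lowest in shift, at 8.38 against 8.54 to 8.81. Of 13 genes of the anaphase-promoting complex 3 had a positive shift there, and of 19 genes of G2/M transcription and Cdk1 control 8, with Mybl2, which encodes the B-Myb partner of the MuvB complex, at 9.93 against 10.07 to 10.37. On replicate 4, 19 of the 24 other kinetochore and checkpoint genes had a positive shift under every scaling, against 45.9% of all probe sets. On replicate 3, 10 of the 13 genes of the anaphase-promoting complex had one (9 with quantile normalization or cyclic loess), against 52.2%.

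DNA replication genes, which act earlier in the cell cycle, had a larger median spread than the mitotic ones on these arrays. It was 0.125 (median SD) for the 46 genes, which all passed the background line. Of the 46, 16 spanned less than 0.25, where 38 of 47 mitosis and spindle genes and 48.3% of all probe sets did. On replicate 1 the median shift of the DNA replication genes was -0.17. There 6 of 46 had a positive shift, where 29 of 47 mitosis and spindle genes had one and 52.1% of all probe sets. This count was 6 or 7 under every scaling. Tk1, the thymidine kinase of S phase, had the lowest shift there, at 10.13 against 10.57 to 10.79. The 17 G1 cyclin, kinase and inhibitor genes had a median SD of 0.105, close to the 0.105 of 23 other spindle and cytokinesis genes. All probe sets above background had 0.115. Of the 17 G1 genes, 10 spanned less than 0.25. The difference between the lists on replicate 1 rests on a single array and was not tested.

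B-cell and erythroid markers had larger median shifts on some of the same arrays. On replicate 1 the median shift was 0.58 for 17 early B-cell markers and 0.41 for 9 later B-cell markers, and -1.31 for 9 erythroid markers, 9 of 9 of them lower. On replicate 4 it was -0.52 for the early and -0.68 for the later B-cell markers. Among 13 markers of granulocytes and monocytes the median was -0.15, -0.41, 0.21 and 0.29 on replicates 1 to 4. Of these 13, 10 were higher on replicate 3 and 10 on replicate 4. The erythroid median was 0.71, 0.41 and 0.33 on replicates 2 to 4, and 9 of 9 were higher on each. For 5 megakaryocyte markers the median was 0.28, 0.22, -0.072 and -0.41 on replicates 1 to 4. The median shifts of 7 T and NK cell markers lay between -0.045 and -0.034 on all arrays, but single markers lay far to either side. On replicate 1 the shift was 1.05 for Klrb1c, 0.82 for Ncr1 and 0.28 for Thy1. It was -0.30 for Cd3g, -0.28 for Cd3e, -0.12 for Cd4 and -0.045 for Cd8a. On these arrays the median shift of the mitosis and spindle genes stayed between -0.026 and 0.040, and that of 9 housekeeping genes between -0.035 and 0.040. Whether the lineage markers and the small shifts of single mitotic genes are linked was not tested.

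**Figure D5:**
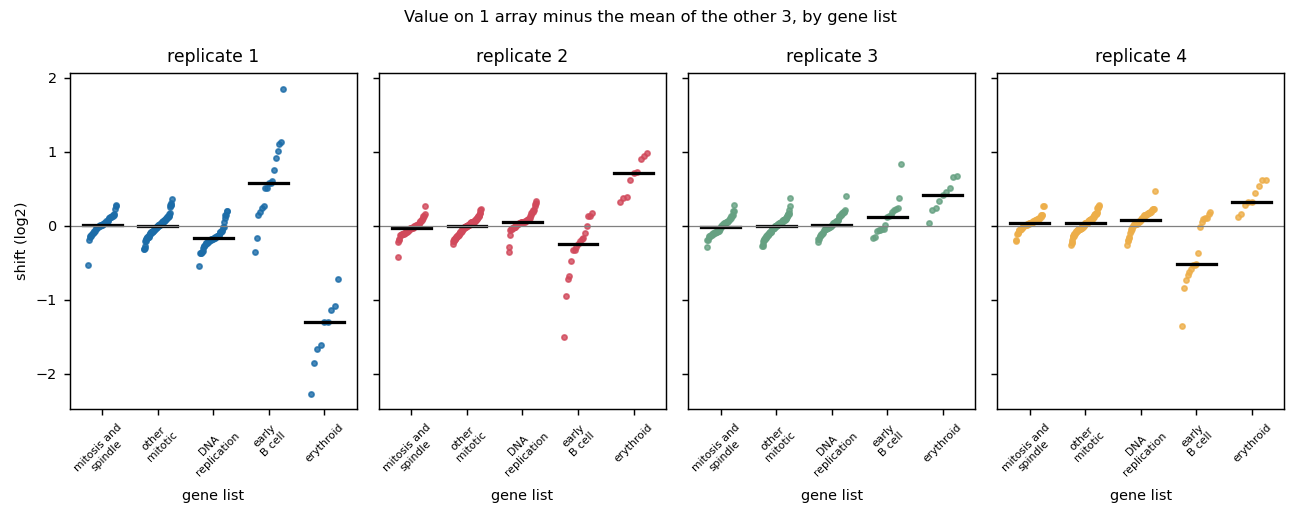
Shift of each gene on the log2 scale (vertical axis, value on 1 array minus the mean of the other 3) on the 4 arrays, for 5 gene lists (horizontal axes). Each point is a gene and each bar a median; the medians of the mitosis and spindle genes lie between -0.026 and 0.040, and that of the erythroid markers lies at -1.31 on replicate 1.

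The promoter element was also set beside the spread over the arrays. The median SD was 0.080 for the 28 genes with the cell cycle homology element in the last 100 bases of a window and 0.080 for the 12 measured genes that had a window without it there. On replicate 3 the median shift was -0.069 for the former and 0.033 for the latter, and on replicate 1 it was 0.038 and 0.007. On replicate 2 it was -0.031 and -0.052, and on replicate 4 it was 0.034 and 0.050. These medians are descriptions over genes of the same 4 arrays and carry no test.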

How the data were processed

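Total RNA of wild-type pro-B cells was hybridized to 4 Affymetrix Mouse Gene 1.0 ST arrays. The deposited values are log2 intensities per probe set; the authors corrected background and normalized with RMA, and describe a filter on weakly expressed probe sets. The sources used here state neither which arrays were normalized together nor the threshold of that filter. RMA evens out differences common to all genes and compresses fold changes. All 34760 probe sets were kept, and 0 columns lacked a sample. The platform annotation gives 21640 probe sets 1 gene symbol, 1321 several and 11799 none; only the first were named, and 21553 matched the reference table by gene identifier.

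A gene with several probe sets was given by the one with the highest mean. Levels were not compared between genes. An array stood apart where Dixon's ratio passed 0.829. As the samples form 1 group, no group test was made. The members, the other gene lists and the rules were chosen with earlier results of these data known. All members were counted; values on every array were given for a fixed set of core genes, the 6 largest and 6 smallest SDs and each gene with 1 array apart. Sequences are RefSeq promoter windows of GRCm38.p6. No coordinates of probe sets are given, since no build is named for them.

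Alternatives were other background lines, passing on 3 of 4 arrays, limma's one-sided test against the line (Benjamini-Hochberg, adjusted p threshold 0.05), quantile normalization, cyclic loess, median centring, the mean of a gene's probe sets, no filter and leaving out each replicate. Scripts were tested on simulated data. Normalizations and the limma test ran in limma 3.58.1 under R 4.3.3, and all else in Python 3.11.15 with pandas 2.3.3 and numpy 2.4.6 (figures: matplotlib 3.10.9).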

Additional observations from a re-analysis of the deposited data

Results flagged for a closer look

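Of the 47 genes, 3 had 1 array far from 3 close values by Dixon's ratio, where 5.36% of all probe sets above background had one and chance gives about 1 in 20. Bub1b was low on replicate 2, at 10.52 against a mean of 10.65 on the other arrays. Mki67 was low on the same array, at 12.37 against 12.48. Anln was low on replicate 3, at 10.55 against 10.84. With median centring only Anln was apart. Quantile normalization gave Bub1b, Top2a and Anln, and cyclic loess Cdk1, Bub1b and Anln, so that Mki67 was apart under none of these 3 scalings. Marker shifts on these arrays, and the Xist and Eif2s3y values of replicate 3, are given above, and their part in these values was not tested.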

How the results depend on the processing

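No paired analysis was possible because the arrays form a single group. The count of 47 genes above background was unchanged under all 13 alternatives, the limma test among them. The median SD was 0.077 to 0.080 under the other normalizations and 0.070 to 0.086 on leaving out single replicates. The number of genes with 1 array apart was 1 with median centring and 3 under the other 4 alternatives. The small median shifts changed sign in 4 cases: on replicate 1 with median centring (-0.019) and without replicate 2 (-0.002), and on replicate 3 with median centring (0.001) and without replicate 4 (0.004). Leaving out each replicate gave 23 to 30, 16 to 19, 14 to 24 and 27 to 35 genes with a positive shift on replicates 1 to 4. Chosen after the data were seen, the same normalizations gave median shifts on replicate 1 of -0.20 to -0.16 for DNA replication genes and -1.35 to -1.34 for erythroid markers. Shifts of this size on a single array have no replicate, and 4 arrays limit what any SD can show.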

Other observations

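The 17 G1 cyclin, kinase and inhibitor genes had a median shift of 0.034 on replicate 1, with single genes far to either side. Ccnd3, the D-type cyclin of early lymphoid cells, had the highest shift of its list there, at 12.02 against 11.41 to 11.61. Ccne1, the cyclin of S-phase entry, had the lowest, at 10.27 against 10.66 to 10.73. Ccnd2, named after its values were seen, was at 10.92 against 11.25 to 11.40. The inhibitors, also named after their values were seen, were uneven there. The shift was 0.48 for Cdkn1b, 0.47 for Cdkn2c and 0.44 for Cdkn2d, but 0.034 for Cdkn1c, 0.028 for Cdkn2a and 0.005 for Cdkn2b. On the same array the median shift was -0.17 for DNA replication genes, 0.58 for early B-cell and -1.31 for erythroid markers, and the part of these cells was not tested.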
